A study of Mus musculus with 10 samples.

Results

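The genes described here are 9 transcripts of the beta-adrenergic and cyclic AMP (cAMP) pathway of airway relaxation, measured in whole lung of mice fed either a fish oil diet (FO) or a coconut oil diet (CO). They were taken by symbol from a table of 24059 gene symbols and are the receptor Adrb1, the G protein gene Gnas, the kinase subunit Prkar1a, the anchoring proteins Akap5, Akap9, Akap12 and Akap13, and the phosphodiesterases Pde4b and Pde4d. Akap5 and Pde4b were picked for their patterns in these same counts, so their values are given as a description without a test. The animals were female C57Bl/6 mice aged 14 weeks, 5 per diet, each mouse giving 1 library. Both diets were semipurified, were described as holding 19% fat and 0.2% cholesterol by weight, and were fed for 8 weeks. The diet composition in the paper's supplement differs from this, listing less cholesterol in the FO than in the CO diet. In the FO diet menhaden fish oil made up 91% of the fat and corn oil the remaining 9%. In the CO diet coconut oil gave 78% of the fat, as saturated fat, olive oil 13% and corn oil 9%. Airway reactivity was tested before the lungs were perfused with PBS, so the RNA of both groups comes from lungs that had gone through that test, and no group on a standard diet is compared here.

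In airway smooth muscle, a beta-adrenergic receptor that binds adrenaline or a relaxant drug activates the G protein Gs, whose alpha subunit Gnas encodes. Gs turns on adenylyl cyclases, which make cAMP, and cAMP releases the catalytic subunits of protein kinase A (PKA) from regulatory subunits such as that of Prkar1a. A-kinase anchoring proteins (AKAPs) hold PKA, receptors and phosphodiesterases at particular membranes and organelles, and phosphodiesterases break cAMP down. PKA relaxes smooth muscle, and in the nucleus it phosphorylates CREB, which binds the cAMP response element (CRE) in promoters, Pde4b being a well-known gene that cAMP induces. The same pathway drives fluid clearance in alveolar epithelium and barrier function in endothelium, so whole lung mixes its signals from many cell types.

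None of the genes tested was called different between the diets. Of the 7 that passed the filter on low counts, the 5 that were not picked for their pattern were tested, and 0 had an unadjusted p-value under 0.05 in edgeR's quasi-likelihood test, against 2.91% of the 2438 genes tested (71 genes). DESeq2 and limma-voom called 0 of them as well. Adrb1 and Pde4d, which did not pass the filter, were tested in a second edgeR fit of every gene with at least 1 count, where 0 of the 2 were called, against 4.15% of 14161 genes. In all 9 genes the values of the FO and CO mice overlapped, and only 0.451% of the 2438 genes that passed the filter had groups that did not overlap. With shares this low over all genes, 0 calls and 0 separated groups among so few genes are not particular to them. Akap5 was more even in FO than in CO lungs, and Pde4b was higher in FO lungs on average, each resting on 2 or 3 CO mice. Akap9, Akap12 and Akap13 had their highest FO value in FO mouse 2 and their highest CO value in CO mouse 5. Levels are scaled by TMM, and with library size alone in its place the median log2 fold change of all genes moved from 0.00 to -0.48, which put Adrb1, Gnas, Prkar1a, Akap12 and Akap13, all above 0 with TMM, below 0.

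The libraries were shallow and uneven, which sets how firmly any value can be read. Counts per mouse ranged from 229766 to 1124963, of which Rn45s, the ribosomal RNA precursor, took 21.8% to 87.0%, leaving 45177 to 473254 for all other genes. A count of 3, taken as the floor of a library, corresponds to between 2.13 and 18.5 CPM, the count scaled to a common library size, and intervals and floors here cover counting error only. The Rn45s share was 72.6% ± 10.9 (SD, n = 5) in FO and 62.2% ± 25.8 in CO mice, a difference within the spread between mice (exact permutation test, two-sided, p = 0.492), and it was 0.245 percentage points without CO mouse 4. With Rn45s set aside, the nuclear noncoding RNA Malat1 made up 8.53% of FO mouse 2 and 6.15% of CO mouse 5, and at most 1.05% of the other 8 libraries. Lung markers were present in every library, among them Scgb1a1 of club cells, at 626 CPM or more in every mouse. All 848 symbols that the annotation places on chromosome 15 had 0 counts in every mouse, while on the other chromosomes, Y aside, 49.3% to 68.6% of symbols had a count. None of the 9 genes lies there, but 8 genes of the wider pathway lists do and were not measured.

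The sequences around the starts of these genes bear on the pathway because CREB acts through the CRE. RefSeq promoter windows of GRCm38.p6, 300 bases from 250 before to 50 after a transcript start, were at hand for 8 of the 9 genes in 19 windows, and Akap12 had none. Each was searched on both strands for the full element TGACGTCA and for its 5-base core site TGACG, which the full element also contains. The full element was present in Prkar1a alone of the 8 genes, in 2 overlapping windows of 6. Over all genes with a window, 549 of 27025 (2.03%) had it. The core site was present in Adrb1, Gnas, Prkar1a and Pde4b, or 4 of 8 genes, against 23% of all genes. These genes have more windows each than the rest, 19 for 8 genes against 32851 for 27025, which raises a share counted per gene. Counted per window, 20.8% of all windows had the core site and 1.79% the full element. The core site was in 3 of 6 windows of Prkar1a, 3 of 4 of Gnas, 1 of 4 of Pde4b and the only window of Adrb1. Here 2 of the Gnas windows overlap and hold the same core site, and the 2 overlapping Prkar1a windows hold the same matches, so these sites are counted more than once. The windows shown are that of Prkar1a with the full element, that of Pde4b with a core site, and that of Akap5, where neither was found. Capitals mark the matches, all 3 windows are on the plus strand, and each reads 5′ to 3′.
Prkar1a, chr11:109650699-109650998: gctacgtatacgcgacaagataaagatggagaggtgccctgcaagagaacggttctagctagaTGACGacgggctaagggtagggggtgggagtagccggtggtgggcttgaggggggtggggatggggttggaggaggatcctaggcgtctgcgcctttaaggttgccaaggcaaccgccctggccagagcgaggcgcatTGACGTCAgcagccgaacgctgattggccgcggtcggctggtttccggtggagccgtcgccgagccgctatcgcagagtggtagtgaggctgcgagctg
Pde4b, chr4:102421305-102421604: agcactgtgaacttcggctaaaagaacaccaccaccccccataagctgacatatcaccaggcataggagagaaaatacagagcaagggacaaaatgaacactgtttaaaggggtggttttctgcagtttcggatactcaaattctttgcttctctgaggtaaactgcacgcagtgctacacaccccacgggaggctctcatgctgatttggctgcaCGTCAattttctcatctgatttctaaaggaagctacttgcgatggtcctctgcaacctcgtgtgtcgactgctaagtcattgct
Akap5, chr12:76324641-76324940: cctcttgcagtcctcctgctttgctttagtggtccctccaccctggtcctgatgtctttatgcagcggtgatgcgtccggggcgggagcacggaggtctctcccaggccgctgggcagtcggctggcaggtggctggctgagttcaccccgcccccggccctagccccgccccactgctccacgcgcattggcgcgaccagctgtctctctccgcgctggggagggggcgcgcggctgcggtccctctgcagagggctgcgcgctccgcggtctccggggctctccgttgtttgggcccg
In the Prkar1a window the full element begins 49 bases before the transcript start, and a separate core site lies further upstream. The Pde4b window belongs to a start inside the gene, since Pde4b spans chr4:102087543-102607259 with 13 annotated transcripts, and its core site begins 34 bases before that start. A match of these letters is a description of the sequence, and binding of CREB was not measured.

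Levels are compared between genes as CPM per kilobase of annotated exon, averaged over the 10 mice. The anchoring protein gene Akap5 (42.6 ± 27.8, SD, n = 10) and the PKA subunit gene Prkar1a (41.2 ± 8.74) had the highest means, followed by Akap12 (28.0 ± 8.60) and Gnas (20.4 ± 4.84). The receptor gene Adrb1 (5.39 ± 2.10), Akap13 (4.77 ± 2.24) and Pde4b (3.25 ± 1.85) were lower, and Akap9 (1.67 ± 1.15) and Pde4d (0.856 ± 0.843) lowest. The place of Akap5 rests on CO mice 4 and 5: its median was 30.9 against 40.4 for Prkar1a, and over the FO mice its mean (29.4) was below those of Prkar1a (46.2) and Akap12 (30.1). Neighbours in the order of means overlapped in their mean ± SD except at the step from Gnas to Adrb1, and even there the lowest Gnas value (9.92) was under the highest Adrb1 value (10.8). The exon lengths used join all annotated transcripts, from 3.38 kb in Adrb1 to 21.4 kb in Akap9, so a gene that uses a short transcript in lung is understated.

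**Figure D1:**
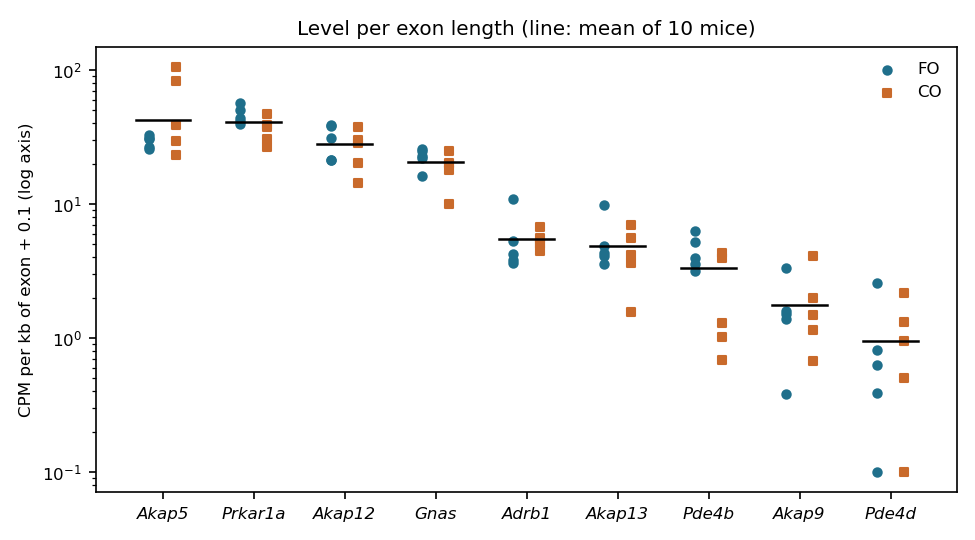
Level of each of the 9 genes in CPM per kilobase of exon (log axis, 0.1 added so that values of 0 can be drawn) for the 5 FO mice (circles) and 5 CO mice (squares), with a line at the mean of the 10 mice. Akap5, Prkar1a, Akap12 and Gnas form the upper group at means of 20.4 to 42.6, and Pde4d is lowest at 0.856.

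Adrb1 encodes the beta-1 adrenergic receptor (chr19:56722199-56733113, plus strand, GRCm38). Its levels were 13.9, 17.8, 12.0, 12.6 and 36.5 CPM in FO mice 1 to 5 and 18.5, 14.8, 22.3, 16.6 and 17.1 CPM in CO mice 1 to 5. FO mouse 5 was the highest of the 10, and the groups overlapped. FO mouse 3 rests on 2 counts and CO mice 1 and 2 on 3 counts each, at or under the floor, so the order among the lower values is not resolved. Means were 18.6 ± 10.3 CPM in FO and 17.9 ± 2.82 CPM in CO (SD, n = 5 each), with 111 counts in all 10 mice together. Adrb1 did not pass the filter on low counts and was read from the second fit. There its log2 fold change of FO over CO was 0.01 (SE 0.45, 95% interval -0.86 to 0.89, adjusted p = 0.999). Without FO mouse 5 it was -0.29. The interval spans lower and higher levels in FO. In whole lung, fewer cells of a type and less RNA per cell cannot be told apart, here and in every value that follows.

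Gnas (chr2:174284320-174346744, plus strand) encodes the alpha subunit of Gs and is an imprinted locus with 24 annotated transcripts. It stood at 245, 180.4, 288, 279 and 253 CPM in FO mice 1 to 5 and at 223, 228, 199, 278 and 111 CPM in CO mice 1 to 5. CO mouse 5 was lowest and FO mouse 2 next, and the other 8 mice lay between 199 and 288 CPM. The means were 249 ± 42.3 CPM in FO and 208 ± 61.2 CPM in CO (SD, n = 5 each), a log2 fold change of 0.26 (SE 0.25, 95% interval -0.26 to 0.77, edgeR adjusted p = 0.998). It was 0.09 without CO mouse 5 and 0.42 without CO mouse 4. The exons of Gnas overlap those of the antisense gene Nespas, which had 0 counts, and of Gm20721 on the opposite strand. The strand setting of the counting is not given in the sources used here, so reads from that gene could not be set apart.

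Prkar1a encodes the type I alpha regulatory subunit that keeps PKA inactive until cAMP binds (chr11:109649405-109669656, plus strand), and its promoter held the full CRE shown above. Levels in FO mice 1 to 5 were 170.0, 179, 216, 189 and 243 CPM, and in CO mice 1 to 5 they were 204, 163, 116, 133 and 168 CPM. Every FO mouse was above 4 of the 5 CO mice, and CO mouse 1, at 204 CPM, lay among the FO mice. Means were 199.5 ± 29.9 CPM in FO and 157 ± 34.2 CPM in CO (SD, n = 5 each). The log2 fold change was 0.36 (SE 0.22, 95% interval -0.10 to 0.82), which did not pass the test (edgeR, adjusted p = 0.998). Of the 5 tested genes it had the smallest p-value.

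**Figure D2:**
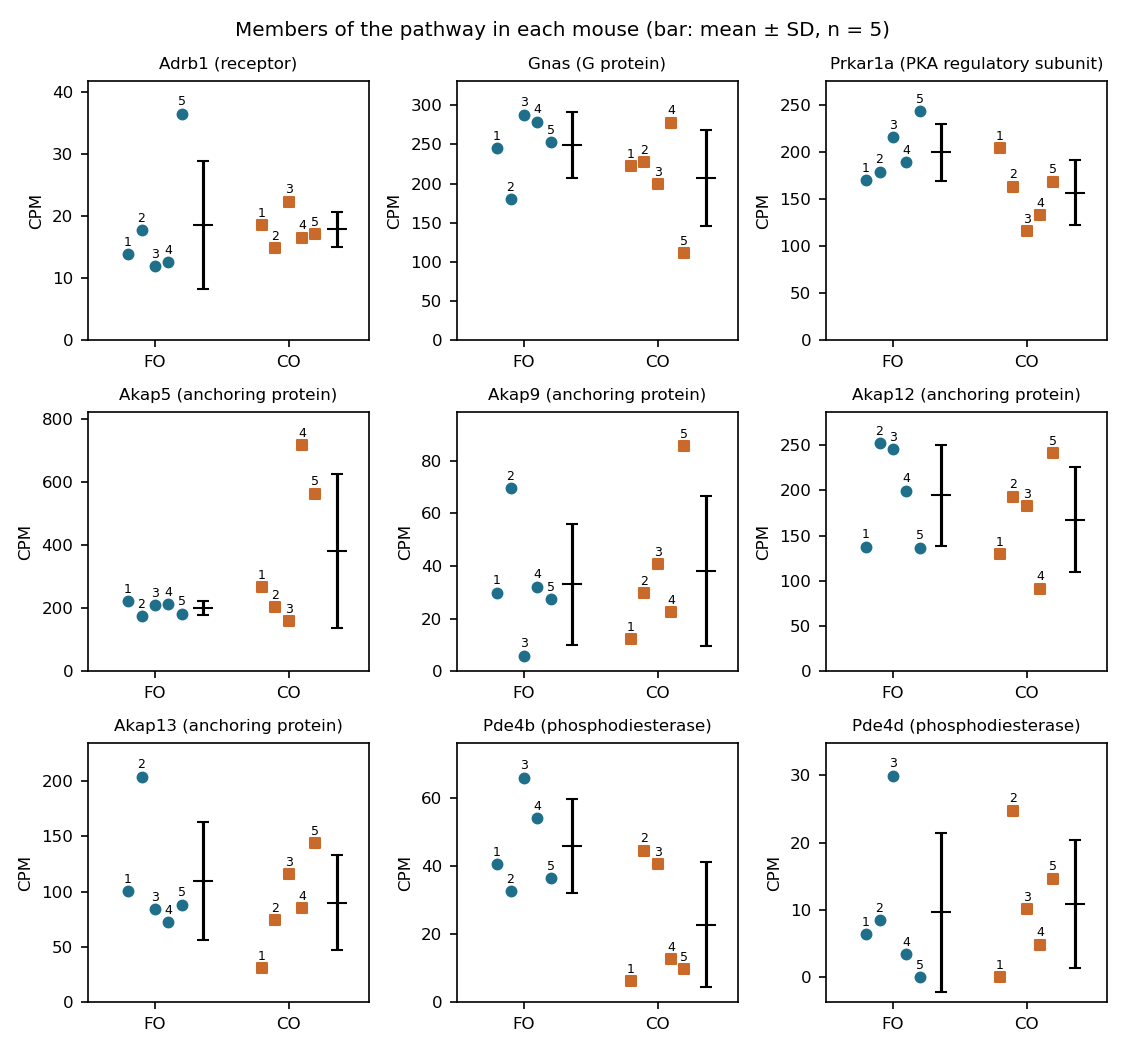
CPM of each of the 9 genes in every mouse, FO as circles and CO as squares, with the mouse number beside each point and the mean ± SD of the 5 mice of each diet as a bar. The FO mice lie close together for Akap5 (175 to 223 CPM) while CO mice 4 and 5 stand at 716 and 563 CPM, and for Pde4b CO mice 1, 4 and 5 lie under all other mice.

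Akap5 encodes AKAP79/150, which ties PKA, calcineurin and protein kinase C to the plasma membrane beside beta-adrenergic receptors and channels (chr12:76324891-76334153, plus strand). It was at 223, 175, 209.8, 212 and 183 CPM in FO mice 1 to 5, and at 266, 203, 158, 716 and 563 CPM in CO mice 1 to 5. CO mice 4 and 5 were the highest of the 10, while CO mice 2 and 3 lay within or below the FO values. The mean was 200.6 ± 20.9 CPM in FO and 381 ± 245 CPM in CO (SD, n = 5 each), so the coefficient of variation between mice was 10.4% in FO and 64.3% in CO. The log2 fold change of FO over CO was -0.96 with all mice, -0.58 without CO mouse 4 and -0.78 without CO mouse 5. It was -1.85 with library size alone as the scaling and -0.38 with limma-voom and sample quality weights. These figures describe a gene chosen for this pattern.

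Having CO mice 4 and 5 as the 2 highest mice was not particular to Akap5: 81 of the 2438 genes tested (3.32%) showed that order, which was looked for after the values were seen. Among the pathway lists the other was Akap2, which encodes AKAP-KL, an anchoring protein of kidney and lung. Akap2 was at 201 to 253 CPM in FO mice, at 177 to 208 CPM in CO mice 1 to 3, and at 584 and 384 CPM in CO mice 4 and 5. Its log2 fold change was -0.43 (SE 0.29, edgeR adjusted p = 0.998). Akap2 had the pattern most like that of Akap5 over the 10 mice (Pearson r of log2 CPM 0.92), followed by Ablim3 and Phactr2 (0.88 each), Trim56 (0.88) and Nfe2l1 (0.86). These correlations describe libraries that differ in depth and composition, and they rest largely on the same pair of mice. The annotation has a joined gene, Pakap, over Akap2, so its reads are uncertain.

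The summed level of the 8 alveolar type 1 cell markers was highest in CO mouse 4, as was Akap5. It was 2203 CPM in CO mouse 4 and 1121 CPM in CO mouse 5, against 711 to 747 CPM in the other CO mice and 731 to 1179 CPM in FO mice. Cldn18, a tight junction gene of these cells, was at 721 CPM in CO mouse 4 and 228 CPM in CO mouse 5, and between 74.2 and 271 CPM in the others. The highest values of Ager, Hopx, Pdpn and Emp2 were also in CO mouse 4, and that of Rtkn2 in CO mouse 5. Not every marker followed this order. Hopx was at 456 CPM in CO mouse 4 but at 79.3 CPM, its lowest value, in CO mouse 5. Clic5 was highest in FO mouse 2 (239 CPM), above CO mice 4 and 5 (191 and 209.7 CPM). Of the 8 markers 7 were tested and 0 passed an unadjusted p of 0.05 in edgeR, and Aqp5, on chromosome 15, was at 0. CO mouse 4 also had the lowest Rn45s share, 21.8%. The part of either in the Akap5 values was not tested.

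**Figure D3:**
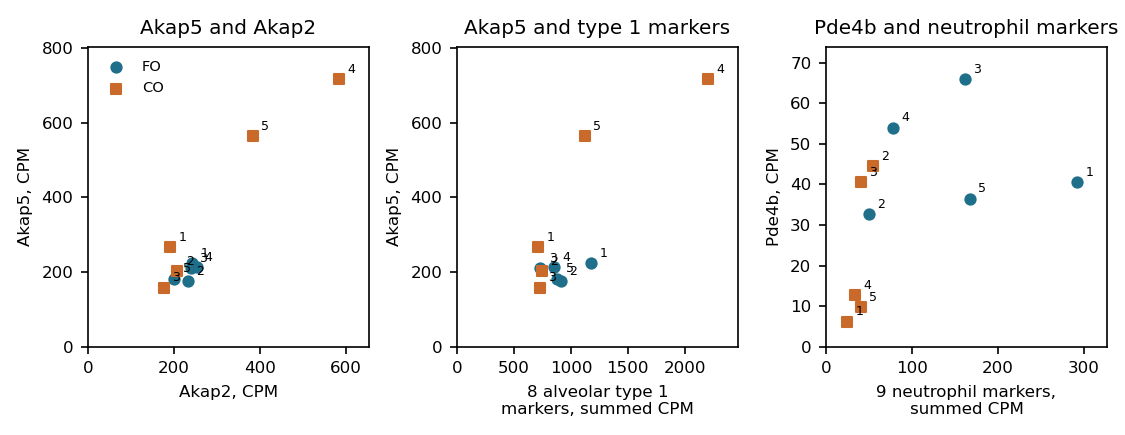
Akap5 against Akap2 (left) and against the summed level of 8 alveolar type 1 cell markers (centre), and Pde4b against the summed level of 9 neutrophil markers (right), all in CPM, with 1 point per mouse (FO circles, CO squares, mouse number beside each). CO mouse 4 is at the top of the first 2 panels, at 716 CPM of Akap5 with 2203 CPM of type 1 markers, and in the right panel CO mice 1, 4 and 5 lie at 6.18 to 12.7 CPM of Pde4b.

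Akap12 encodes gravin, a scaffold that binds PKA and protein kinase C (chr10:4266380-4359470, plus strand). It was at 138, 252.1, 246, 199.8 and 137 CPM in FO mice 1 to 5 and at 129.8, 193, 183, 91.6 and 241 CPM in CO mice 1 to 5. The diets overlapped over most of their ranges, while CO mice 4 and 1, at 91.6 and 129.8 CPM, lay below every FO mouse. The log2 fold change was 0.20 (SE 0.28, 95% interval -0.38 to 0.78, edgeR adjusted p = 0.998), from means of 194 ± 55.9 CPM in FO and 168 ± 58.2 CPM in CO (SD, n = 5 each). Single mice moved it: it was 0.03 without CO mouse 4, 0.06 without FO mouse 2, 0.10 without FO mouse 3, 0.39 without CO mouse 5 and 0.31 without FO mouse 1.

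Akap13 encodes AKAP-Lbc, which is both a PKA anchor and an activator of the small GTPase RhoA (chr7:75455534-75754609, plus strand). Levels were 100.5, 204, 83.9, 72.3 and 88.2 CPM in FO mice 1 to 5 and 30.9, 74.2, 116, 84.8 and 144 CPM in CO mice 1 to 5. FO mouse 2 and CO mouse 5 were the highest of the 10. The means of 109.8 ± 53.5 CPM in FO and 89.9 ± 42.8 CPM in CO (SD, n = 5 each) gave a log2 fold change of 0.25 (SE 0.34, 95% interval -0.46 to 0.96, edgeR adjusted p = 0.998), which was -0.16 without FO mouse 2, 0.08 without CO mouse 1 and 0.48 without CO mouse 5.

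Akap9 encodes a large anchor of the Golgi apparatus and centrosome (chr5:3928054-4081310, plus strand). It was at 29.9, 69.6, 5.99, 32.1 and 27.4 CPM in FO mice 1 to 5 and at 12.4, 29.7, 40.6, 22.4 and 85.4 CPM in CO mice 1 to 5. CO mouse 5 and FO mouse 2 were again highest. FO mouse 3 rests on 1 count (exact Poisson interval 0.152 to 33.4 CPM) and CO mouse 1 on 2 counts (1.497 to 44.7 CPM), both under their floors, so the order at the low end is not resolved. The means were 33.0 ± 23.0 CPM in FO and 38.1 ± 28.4 CPM in CO (SD, n = 5 each). The log2 fold change was -0.16 (SE 0.44, 95% interval -1.09 to 0.77, edgeR adjusted p = 0.998), -0.65 without FO mouse 2 and 0.46 without CO mouse 5, so no direction can be given. The 3′ end overlaps Cyp51 on the opposite strand, which had 84 counts.

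FO mouse 2 and CO mouse 5 are the mice with the high Malat1 shares, 8.53% and 6.15%. CO mouse 3 had the next Malat1 share (1.05%) and the next values of Akap9 (40.6 CPM) and Akap13 (116 CPM), while CO mouse 1, with the lowest Malat1 share at 0.135%, had the lowest Akap13 value. FO mouse 3, with 0.176%, had 83.9 CPM of Akap13 and 246 CPM of Akap12, so the order did not hold throughout, and for Akap9 both of these mice were under the floor. The order with FO mouse 2 highest of its diet and CO mouse 5 highest of its diet was seen after the values were known and was held by 381 of the 2438 genes tested (15.6%), among the pathway lists also by Akap8l and Crebbp. FO mouse 2 and CO mouse 5 also had the highest marker sums of smooth muscle, 554 and 499 CPM, and of cardiac muscle, 349 and 194 CPM. Their alveolar type 2 marker sums, 3417 and 2745 CPM, were the highest as well. The other marker lists did not have this order, the macrophage sum being highest in FO mouse 3 (474 CPM). The part of what sets these libraries apart in the levels of the anchoring protein genes was not tested. The diets did not differ in Malat1 share beyond the spread between mice (exact permutation test, two-sided, p = 0.794).

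**Figure D4:**
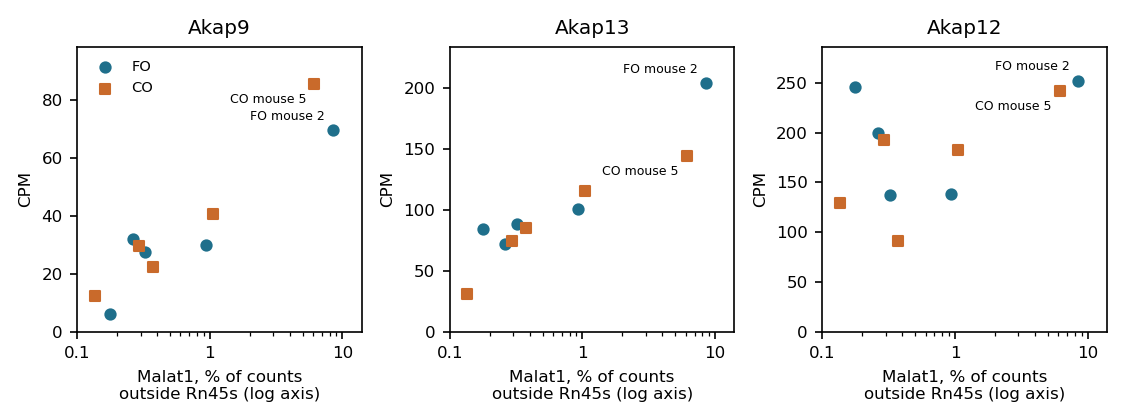
CPM of Akap9, Akap13 and Akap12 in each mouse against the share of Malat1 in the counts outside Rn45s, in percent on a log axis (FO circles, CO squares). FO mouse 2 (8.53%) and CO mouse 5 (6.15%) hold the highest level of each diet in all 3 panels, while Akap12 reaches 246 CPM in a mouse with 0.176%.

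Pde4b encodes the cAMP-specific phosphodiesterase 4B, abundant in leukocytes and a target of anti-inflammatory inhibitors (chr4:102087543-102607259, plus strand). It was at 40.6, 32.7, 65.9, 54.0 and 36.5 CPM in FO mice 1 to 5, and at 6.18, 44.5, 40.6, 12.7 and 9.76 CPM in CO mice 1 to 5. CO mice 1, 4 and 5 were the 3 lowest of the 10, while CO mice 2 and 3 lay among the FO mice. The means were 45.9 ± 13.8 CPM in FO and 22.8 ± 18.3 CPM in CO (SD, n = 5 each), from 154 and 51 counts, a log2 fold change of 1.05. It lay between 0.7945 and 1.499 with any mouse left out. CO mouse 1 rests on 1 count, below its floor of 18.5 CPM (exact Poisson interval 0.157 to 34.4 CPM), an interval that overlaps those of FO mice 1, 2, 3 and 5. As with Akap5, the gene was chosen for this pattern, and no test is given.

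The order with CO mice 1, 4 and 5 lowest was looked for after the values were seen and was held by 21 of the 2438 genes tested (0.861%), and in the pathway lists also by Prkx, a catalytic kinase related to PKA. The genes most like Pde4b over the 10 mice were Clic4 (Pearson r of log2 CPM 0.93), Plekhf2 (0.91), Kctd12 (0.88), Mt2 (0.88) and Lpar1 (0.86). These correlations include the difference between the diets, for which Pde4b was picked. Within diets r was 0.90 for Clic4, 0.88 for Plekhf2, 0.79 for Kctd12, 0.785 for Mt2 and 0.87 for Lpar1. Since Pde4b is a leukocyte gene, the markers of those cells are set beside it. The 9 neutrophil markers summed to 292, 49.7, 162, 78.1 and 167 CPM in FO mice 1 to 5 and to 24.7 to 54.4 CPM in CO mice. The only marker among them that passed the filter was S100a9, at 21.3 to 147.5 CPM in FO and 4.95 to 17.1 CPM in CO mice. It passed the filter through its FO values, so its unadjusted p under 0.05 in edgeR, higher in FO, is not an independent test. After adjustment 0 of the 2438 genes passed. The 8 macrophage markers summed to 208 to 474 CPM in FO and 80.9 to 401 CPM in CO mice, and 0 of the 2 tested had an unadjusted p under 0.05. The 9 T and B lymphocyte markers, of which 0 passed the filter, summed to 5.99 to 33.5 CPM in FO and 0 to 46.3 CPM in CO mice. Their sums were highest in CO mice 4 and 5 (36.1 and 46.3 CPM), where Pde4b was low, and 0 in CO mouse 1. CO mice 2 and 3 had Pde4b at FO levels with neutrophil sums of 54.4 and 40.6 CPM, and the part of these cells in the Pde4b difference was not tested.

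Pde4d encodes the cAMP-specific phosphodiesterase 4D (chr13:108449948-109953461, plus strand). Its levels were 6.41, 8.52, 29.97, 3.44 and 0 CPM in FO mice 1 to 5 and 0, 24.7, 10.2, 4.87 and 14.6 CPM in CO mice 1 to 5. The counts were 53 in all, and the 0 in FO mouse 5 and in CO mouse 1 corresponds, at the floor of 3 counts, to a level of up to 9.13 and 18.5 CPM (upper exact Poisson limits 11.2 and 22.8 CPM). The gene did not pass the filter, and in the second edgeR fit its log2 fold change was -0.50 (SE 0.58, 95% interval -1.62 to 0.63, adjusted p = 0.959). With a mouse left out it ran from -0.82 (without FO mouse 3) to -0.21 (without CO mouse 2). No difference between the diets was detectable at this depth.

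The wider pathway was read from lists of 144 genes chosen by function, though with earlier results of these data known. The table held 142 of them, 119 had a count and 39 passed the filter. Leaving out Akap5 and Pde4b, 37 were tested. Of these 1 (2.7%) had an unadjusted p under 0.05 in edgeR, higher in FO, against 1.68% of all genes tested in that direction, and 0 were lower, against 1.23%. After adjustment over all genes 0 passed. The median log2 fold change of the 37 was 0.08, with 19 above 0, beside a median of 0.00 and 50.6% above 0 for all genes.

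Receptors and adenylyl cyclases were sparsely counted. Of 27 receptors coupled to Gs in the table, 16 had a count and only Calcrl, the receptor component for calcitonin gene-related peptide and adrenomedullin, passed the filter, at 87.3 ± 18.0 CPM in FO and 70.8 ± 28.4 CPM in CO (SD, n = 5 each; log2 fold change 0.31, not called). Of 10 adenylyl cyclases 0 passed, and the most abundant per kilobase of exon were Adcy4 (1.53 CPM per kb) and Adcy9 (1.34 CPM per kb), while Adcy6 and Adcy8 lie on chromosome 15. Of 16 phosphodiesterases Pde4b alone passed. Among 21 G proteins and receptor regulators 11 were tested and 0 called, with log2 fold changes from -0.45 to 0.37. Gnai2, the inhibitory alpha subunit, was at 144 ± 18.1 CPM in FO and 150.4 ± 27.1 CPM in CO, and the beta subunit Gnb2 at 131 ± 34.9 and 121 ± 73.5 CPM.

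Of the PKA subunits and inhibitors 5 were tested and 0 called, with a median log2 fold change of 0.31 and 4 of 5 above 0. The catalytic subunit gene Prkaca was at 90.3 ± 18.0 CPM in FO and 69.7 ± 26.2 CPM in CO, and Prkacb at 37.4 ± 13.9 and 31.1 ± 12.9 CPM. Among the anchoring proteins 10 were tested and 0 called, with a median of -0.18 and 4 of 10 above 0. Of the other cAMP effectors and the CREB family 4 were tested and 0 called. The small GTPases Rap1b (134 ± 41.3 CPM in FO, 115 ± 20.3 CPM in CO) and Rap1a (60.5 ± 6.25 and 55.8 ± 14.7 CPM), which the cAMP-activated exchange factors switch on, and Creb1 (57.6 ± 26.5 and 60.2 ± 10.1 CPM) differed by less than the spread between mice.

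**Figure D5:**
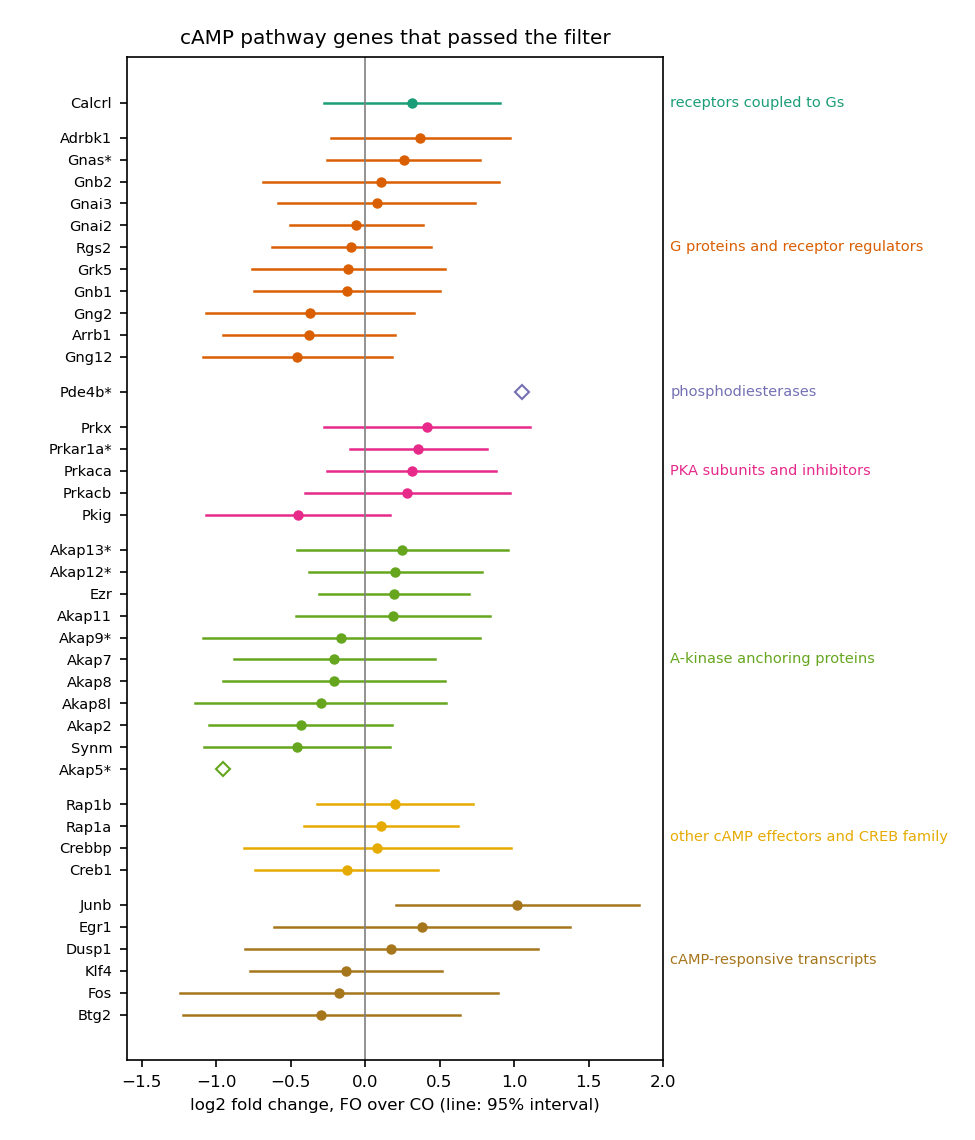
Log2 fold change of FO over CO with its 95% interval for the pathway genes that passed the filter, grouped by role, with an asterisk on the members and an open diamond without an interval for Akap5 and Pde4b, which were not tested. Only the interval of Junb (log2 fold change 1.02) lies clear of 0.

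Junb, an AP-1 transcription factor gene induced within minutes by cAMP and by many other stimuli, was the called gene. It was at 16.0, 37.6, 42.0, 43.6 and 60.8 CPM in FO mice 1 to 5 and at 37.1, 29.7, 16.2, 12.7 and 15.9 CPM in CO mice 1 to 5. FO mice 2 to 5 were above every CO mouse, and FO mouse 1 lay among the lowest. The margin was small, with 37.6 CPM in FO mouse 2 and 37.1 CPM in CO mouse 1. As CO mouse 1 rests on 6 counts and FO mouse 3 on 7, that order is not resolved. The means were 40.0 ± 16.1 CPM in FO and 22.3 ± 10.5 CPM in CO (SD, n = 5 each), a log2 fold change of 1.02 (SE 0.39, 95% interval 0.21 to 1.84, edgeR adjusted p = 0.998). It was 0.83 without CO mouse 4, 0.66 with limma-voom and sample quality weights, and 0.63 with library size alone as the scaling, and in each of these the unadjusted p was over 0.05. Without FO mouse 2 or without FO mouse 4 Junb did not pass the filter. Its exons overlap those of Prdx2 on the opposite strand, which had 240 counts, and with the strand setting unknown its reads are uncertain.

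Of the other cAMP-responsive transcripts that passed the filter, 5 were tested and 0 called. Fos was at 65.3 ± 16.7 CPM in FO and 83.4 ± 52.8 CPM in CO, with 3.90 CPM in CO mouse 4. Egr1 was at 192 ± 114 and 153 ± 104 CPM, and Klf4 at 139 ± 42.3 and 156 ± 70.7 CPM. In the second fit, without the filter, 4 of 18 cAMP-responsive transcripts were called, all higher in FO, against 2.58% of all genes in that direction. As the lists were chosen with earlier results known, this share is a description and not a test. DESeq2 on the same genes called 1 gene of all the pathway lists, Junb, so the other 3 calls did not hold there. The 4 were Junb, the stress-induced factor Atf3 (log2 fold change 1.02, SE 0.43), Fosb (1.25, SE 0.63) and Sik1 (1.03, SE 0.53), a kinase that restrains CREB's coactivators, and the nuclear receptor gene Nr4a2 lay just outside (0.996, SE 0.52). Each of these had an adjusted p of 0.905. Atf3 was at 63.9 CPM in FO mouse 2 and at 5.99 to 18.4 CPM in the other FO mice, against 3.90 to 34.6 CPM in CO mice. That mouse, with the most counts outside Rn45s, also held 25 of the 43 FO counts of Fosb, 28 of 59 of Sik1 and 25 of 61 of Nr4a2. Fosb was highest in CO mouse 1, at 18.5 CPM on 3 counts, and Sik1 was at 19.9 CPM in FO mouse 2 and 19.8 CPM in CO mouse 2. The differences of Atf3, Fosb, Sik1 and Nr4a2 without FO mouse 2 were not tested. In the same fit 2 phosphodiesterase genes were called lower, Pde10a and Pde1c, each on 3 counts in a single CO mouse, which is at the floor, and 1.57% of all genes were called in that direction. After adjustment 0 pathway genes passed in this fit, as against 1 gene of all (0.00706%). Over the 117 pathway genes of that fit, 5.13% were called, against 4.15% of all genes.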

How the data were processed

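RNA of whole lung from 10 mice was sequenced as single-end reads from TruSeq RNA v2 or riboZero libraries, and which mouse had which is not given in the sources used here. For each gene symbol the authors deposited unnormalised read counts, produced with STAR 2.4.0f1, SAMtools 0.1.19 and htseq-count on mm10. The annotation and strand setting are not given. Diets were taken from the sample labels. The 9 genes and all lists were chosen with earlier results of these data known.

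Counts were normalized by TMM and tested with edgeR 4.0.16 (quasi-likelihood, R 4.3.3) on 2438 genes after the default filter, with Rn45s in the library sizes. The threshold was an unadjusted p of 0.05, with Benjamini-Hochberg values beside it. Genes under the filter were taken from a fit of the 14161 genes with any count. Log2 CPM used a prior count of 2. Genes named are the 9, pathway genes called, the 3 most abundant tested genes of each list, up to 5 pathway genes of smallest p with at least 30 counts in the second fit, and the 5 genes most correlated with Akap5 and Pde4b. Prkx, Akap8l, Crebbp, Adcy4, Adcy9, Pde10a, Pde1c and the genes at 0 were added after their values were seen. Cell type markers named singly were outside these rules as well. Positions are those of GENCODE M21 (GRCm38). Alternatives were DESeq2 1.42.0, limma-voom (limma 3.58.1), other scalings and filters, the replicate number as a block, and fits without single mice. Scripts were tested on simulated data.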

Additional observations from a re-analysis of the deposited data

Results flagged for a closer look

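In 5 of 22 groups of 5 mice checked, the highest mouse was flagged by Dixon's test at the 95% level, where chance gives about 1.1. Adrb1 was at 36.5 CPM in FO mouse 5 against 12.0 to 17.8 CPM in the other FO mice. Akap13 was at 204 CPM in FO mouse 2 against 72.3 to 100.5 CPM. Pde4d was at 29.97 CPM in FO mouse 3 against 0 to 8.52 CPM, on 5 counts. The Malat1 share of the counts outside Rn45s was 8.53% in FO mouse 2 against 0.176% to 0.928%, and 6.15% in CO mouse 5 against 0.135% to 1.05%.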

How the results depend on the processing

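Over all genes tested, 71 were called, and 33 with library size alone, 107 without Rn45s, 587 with any count, 15 with at least 10 counts in every mouse, 118 with limma-voom, 138 with DESeq2 on genes with any count (added after seeing the data), and 54 to 156 with a mouse left out, highest without FO mouse 2. With library size alone the median log2 fold change of all genes was -0.48 and 32 of the 33 calls were lower in FO, against 30 of 71. In every alternative 0 of the tested members were called. Pathway genes called were 1, and 2 without Rn45s, 6 with any count, 0 with at least 10 counts in every mouse, 0 with limma-voom, 0 without FO mouse 2 and CO mouse 5, and 0 to 2 with a mouse left out (0 without FO mouse 4, 2 without CO mouse 2). The calls were not always of the same gene. With library size alone, and without FO mouse 2, the 1 pathway call was lower in FO and was not Junb. Of the 2 calls without CO mouse 2, 1 was lower in FO.

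Of 83 member fold changes under alternatives 72 kept their sign and side, 10 reversed and 1 moved. With library size alone Adrb1 was -0.38, Gnas -0.35, Prkar1a -0.085, Akap12 -0.18, Akap13 -0.19 and Akap5 -1.85. Adrb1 was also -0.0016 with DESeq2 on either gene set, -0.0094 with DESeq2 size factors, -0.019 without Rn45s and -0.13 with limma-voom. With a mouse left out Adrb1 ranged from -0.29 to 0.17, Akap9 from -0.65 to 0.46 and Akap13 from -0.16 to 0.48. The Rn45s difference of 10.4 percentage points ranged from 0.245 (without CO mouse 4) to 15.8 (without CO mouse 2). The Malat1 difference of 0.444 percentage points ranged from -1.18 to 1.58. Causes were not tested. Same-numbered mice did not deviate together (mean r -0.12, -0.41 to 0.03 over 5 pairs), and the fit with the replicate block called 55 genes. Counts per gene limit what can be seen for Adrb1, Pde4d and the other receptors.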
